A study of Mus musculus with 7 samples.

Results

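The genes described here make up the machinery by which the endoplasmic reticulum (ER) imports, folds and checks proteins, together with the sensors and transcription factors of the unfolded protein response. They were taken from a list of 40 gene symbols. The expression files held 39 of these symbols among 16019 genes; Ero1l, the oxidase that recharges disulfide isomerases, was not among them. A row named Ero1a, which RefSeq gives as the current symbol of Ero1l, was left out of every count. RNA was measured in 7 prostate samples from mice with experimental autoimmune prostatitis (EAP), an immune inflammation of the gland, which both groups shared. In the treated group, 4 samples came from mice injected into the peritoneum for 14 days with LIT-927, a neutraligand (a compound that binds a chemokine, here CXCL12, and blocks it), at 25 mg/kg per day. The other 3 samples came from mice given methyl-β-cyclodextrin, the solvent, and are called vehicle replicates 1, 3 and 4. There were no mice without prostatitis, strain and age were not given in the sources used here, and the labels do not say that each library is a separate animal. The p-values therefore reflect only how these samples vary, and that variation may be partly technical.

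Proteins bound for secretion enter the ER through the Sec61 channel, lose their signal peptide and are folded by chaperones and disulfide isomerases, while those that fail to fold are sent back to the cytosol for degradation. When unfolded protein builds up, the sensors IRE1, PERK and ATF6 act through XBP1, ATF4 and cleaved ATF6 to raise the genes of folding and degradation. The luminal cells of the prostate and the epithelium of the seminal vesicle secrete large amounts of protein, and plasma cells carry the same machinery at high levels.

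Values are FPKM: counts of fragments divided by gene length in kilobases and by the size of the library in units of 1000000 fragments, so that levels may be compared between genes. FPKM are relative to the whole library, and the libraries differed in what took their fragments. Transcripts of 10 seminal vesicle secretion genes made up 11.5%, 43.0% and 72.3% of all FPKM in the vehicle libraries (replicates 1, 3 and 4, in this order throughout). In LIT-927 replicates 1 to 4, in that order, they made up 40.04%, 50.9%, 41.7% and 29.0%. Libraries with like shares could differ in which of these genes were high. Svs1 was at 123 FPKM in LIT-927 replicate 1 and 11062.5 in replicate 3, while Svs2 was at 109219 and 49764.6. Depth was even, at 32023785 to 35240765 recovered fragments per library. Vehicle replicate 3 and LIT-927 replicate 3 stood apart from the other libraries by high transcripts of uroplakins, the proteins of the bladder lining, and of the secretory gene Sbp. The 8 urothelium markers summed to 439 and 366 FPKM there and to 30.9 to 71.0 in the other libraries. In LIT-927 replicate 3 much of this sum was Upk1a, at 253 FPKM. Upk1b went against the pattern there, at 19.7 FPKM beside 26.5 in vehicle replicate 1 and 27.3 in LIT-927 replicate 4. Where values are called scaled, they were divided by a median-of-ratios factor of each library (0.665 to 1.31), which offsets the share taken by a few abundant genes.

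Several of the genes carry the ER stress response element (ERSE), to which ATF6 and XBP1 bind together with NF-Y. It was searched as CCAAT, 9 free bases, then CCACG, on both strands, in RefSeq promoter windows of GRCm38.p6 that run from 250 bases before to 50 after each start. Of the 39 genes, 32 had a window, and 9 of these (28.1%) held the element: Hspa5, Hsp90b1, Calr, Canx, Dnajc3, Creld2, Pdia6, Derl3 and Syvn1. Among all genes with a window it was in 37 of 27025 (0.137%), in 39 of 32851 windows (0.119%). The 39 genes were listed for their part in this machinery and its stress response, so these shares are a description and no test. The genes chosen for display are those whose levels the results turn on, with the fixed bases in capitals and each written 5′ to 3′ as the gene reads; in those of Calr, Derl3, Hsp90b1 and Creld2 the element lies on the other strand and so appears as CGTGG and ATTGG. The Hsp90b1 window holds 2 matches, 1 on each strand, and the one nearer the start is printed.
Hspa5, chr2:34772020-34772048, plus strand: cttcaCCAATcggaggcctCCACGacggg
Hsp90b1, chr10:86705518-86705566, minus strand: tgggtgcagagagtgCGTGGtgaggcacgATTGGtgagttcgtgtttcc
Calr, chr8:84847060-84847108, minus strand: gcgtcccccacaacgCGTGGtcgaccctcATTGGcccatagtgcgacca
Canx, chr11:50325785-50325833, minus strand: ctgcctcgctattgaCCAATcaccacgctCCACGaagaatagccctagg
Creld2, chr15:88819505-88819553, plus strand: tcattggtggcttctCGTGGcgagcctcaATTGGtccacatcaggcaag
Pdia6, chr12:17266476-17266524, plus strand: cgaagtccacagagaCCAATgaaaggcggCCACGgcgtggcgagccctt
Derl3, chr10:75893227-75893275, plus strand: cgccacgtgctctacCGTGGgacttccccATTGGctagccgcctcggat

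The related element ERSE-II, searched as ATTGG, 1 free base, then CCACG, was in 12 windows (0.0365%) and in 2 of the 32 genes, Herpud1 and Dnajb11. Only elements that lie wholly before the RefSeq start were kept for display, so that of Herpud1 is shown and that of Dnajb11 is not.
Herpud1, chr8:94386362-94386402, plus strand: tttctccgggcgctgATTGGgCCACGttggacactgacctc
In the Herpud1 window the element ends 41 bases before the RefSeq start, and in the Hspa5 window 46 bases before it. The GENCODE record of Hspa5 begins further upstream, so that the element of Hspa5 lies inside that record. The unfolded protein response element TGACGTGG was in 0 of the 32 genes and 0.676% of windows. The cyclic AMP element TGACGTCA was in 0 and 1.79%, and the ATF4 element TTGCATCA in 1 gene, Herpud1, and 0.895%. A match describes these letters only and is no evidence of binding. The elements of different motifs searched here could overlap, and each was counted for itself.

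No gene of the folding and stress machinery passed the test for a change with LIT-927. In the comparison of LIT-927 with vehicle by limma on log2(FPKM + 1), adjusted over all genes by the Benjamini-Hochberg method, 0 of the 39 genes passed an adjusted p of 0.05, and 0 of 16019 genes did (0% higher and 0% lower). At an unadjusted p under 0.05 the genes higher with LIT-927 were 115 in all (0.718%) and those lower 474 (2.96%), with 0 of the 39 in either direction. Testing recovered fragments with voom also called 0 genes. When each library was given a weight for its quality, 466 genes were called, and 0 of the 39 were among them. The adjusted p was 0.998 for each of the 39 genes, and all 39 of their 95% intervals included 0. Groups did not overlap for 0 of the 39 genes, against 1.08% of all genes higher and 2.12% lower with LIT-927. After scaling they did not overlap for 1 gene, Derl1, against 4.05% of all genes higher and 4.99% lower.

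**Figure D1:**
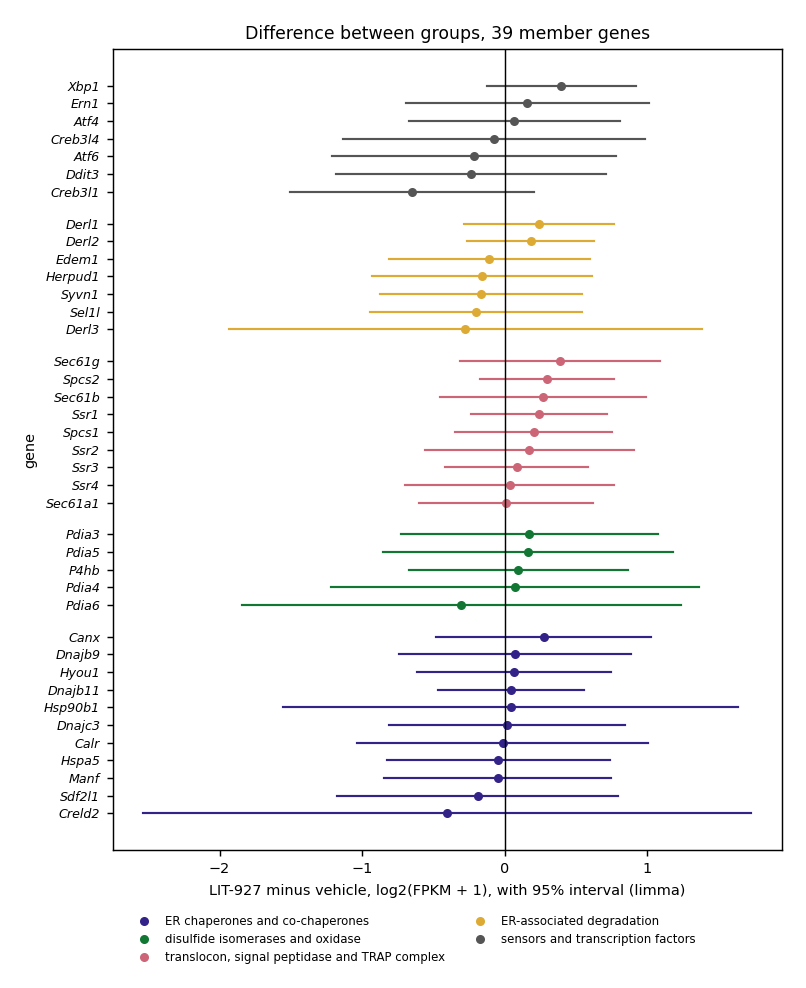
Difference between the groups for the 39 genes, grouped by role (vertical axis, gene; horizontal axis, log2(FPKM + 1) with LIT-927 less that with vehicle). Points are limma estimates and lines their 95% intervals; all 39 lines cross 0, and those of Creld2, Derl3, Hsp90b1 and Pdia6 are the widest.

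The sign of the differences was mixed and depended on the scaling and on which libraries were used. The fitted value was higher with LIT-927 for 24 of the 39 genes, beside 8888 of 16019 genes (55.5%), and the median difference was 0.05, beside 0.02 for all genes. Many of all genes were low, which shrinks differences on this scale. Over the 11151 genes with at least 1 FPKM in 3 libraries, all 39 among them, the median was 0.08, above that of the 39. After median-of-ratios scaling 19 were higher, with a median of -0.01 against 0.00 for all genes, and after upper-quartile scaling 14 were higher. Without vehicle replicate 4, the library with the largest share of seminal vesicle transcripts, 13 of the 39 were higher, and without LIT-927 replicate 4 there were 14. Without vehicle replicate 1 there were 34, and without both libraries with high uroplakin transcripts 33, while the median over all genes also rose, to 0.14 and 0.12. In bulk tissue, fewer cells of a type and less RNA per cell cannot be told apart.

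The general chaperones were abundant, and none differed between the groups beyond the spread of the libraries. Hspa5 on chromosome 2 (34771970 to 34777547, plus strand) encodes BiP, the Hsp70 chaperone that also holds the stress sensors inactive. Its level was 460, 476 and 301 FPKM with vehicle and 345, 393, 316 and 551 with LIT-927. The means were 412 ± 96.7 (SD, n = 3) and 401 ± 105 (SD, n = 4), and the groups overlapped throughout. The difference was -0.04 (SE 0.34, 95% interval -0.83 to 0.74). After scaling, the highest library was 1.57 times the lowest, a span that 53.7% of genes with at least 1 FPKM in every library exceeded.

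Hsp90b1 on chromosome 10 (86690209 to 86705509, minus strand), the ER member of the Hsp90 family, varied far more between libraries than Hspa5. It stood at 836, 313 and 184 FPKM in the vehicle libraries and at 361, 242, 226 and 1004 in the LIT-927 libraries. Vehicle replicate 1 and LIT-927 replicate 4 were high and the other 5 libraries low, so that both groups had wide spreads, 444 ± 345 (SD, n = 3) and 458 ± 369 (SD, n = 4). The ratio of Hsp90b1 to Hspa5 was 1.82 in each of those libraries and 0.612 to 1.04 in the others. The difference between groups was 0.04 (SE 0.69).

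Calr and Canx, which hold glycoproteins in the calreticulin and calnexin folding cycle, differed in how they varied. Calr, the soluble partner, was at 762, 469 and 354 FPKM with vehicle and 421, 418, 400 and 873 with LIT-927, again highest in vehicle replicate 1 and LIT-927 replicate 4. Canx, the membrane-bound partner, was at 131, 91.7 and 64.8 FPKM and 137, 116, 73.7 and 132. After scaling, Canx varied 1.42 times between its highest and lowest library and Calr 2.04 times. The difference between groups was 0.27 for Canx (SE 0.32) and -0.01 for Calr (SE 0.44).

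Creld2 on chromosome 15 (88819646 to 88826683, plus strand), a small isomerase-like protein induced by ER stress, varied the most of these genes. Its levels were 359, 124 and 61.9 FPKM in the vehicle libraries and 114, 47.1, 47.6 and 489 in the LIT-927 libraries. The highest library, LIT-927 replicate 4, was thus 10.4 times the lowest, LIT-927 replicate 2, and 9.11 times after scaling. Of the genes with at least 1 FPKM in every library, 3.22% had a wider span. The groups overlapped, with means of 182 ± 156 (SD, n = 3) and 174 ± 212 (SD, n = 4), and the interval of the difference was the widest of the 39, -2.54 to 1.73 around -0.40.

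The co-chaperones of BiP spanned less between libraries, at most 2.32 times after scaling (Sdf2l1). Sdf2l1, part of the BiP folding complex, was at 165, 103 and 69.3 FPKM with vehicle and 80.3, 67.8, 74.98 and 180 with LIT-927, the same libraries being highest. Manf, a secreted cofactor of BiP, was at 348, 255 and 233 FPKM and 265, 258, 177 and 408. Its exons overlap those of Dcaf1 on the opposite strand and of Rbm15b on the same strand. Counts without strand could mix Manf with Dcaf1, and strand would not part it from Rbm15b. Dnajc3, a co-chaperone that also restrains PERK, was at 101, 77.0 and 46.0 FPKM and 60.6, 57.3, 64.8 and 118. Of the other co-chaperones, Dnajb9 had means of 80.0 ± 6.34 (SD, n = 3) and 89.9 ± 32.7 FPKM (SD, n = 4), with LIT-927 replicate 3 lowest at 43.4 and LIT-927 replicate 2 highest at 119. Dnajb11 and the nucleotide exchange factor Hyou1 differed by 0.05 and 0.07 between the groups and spanned 1.48 and 1.46 times after scaling. Of the 11 chaperones and co-chaperones, 6 had a higher and 5 a lower fitted value with LIT-927, with a median of 0.02; after scaling 3 were higher.

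**Figure D2:**
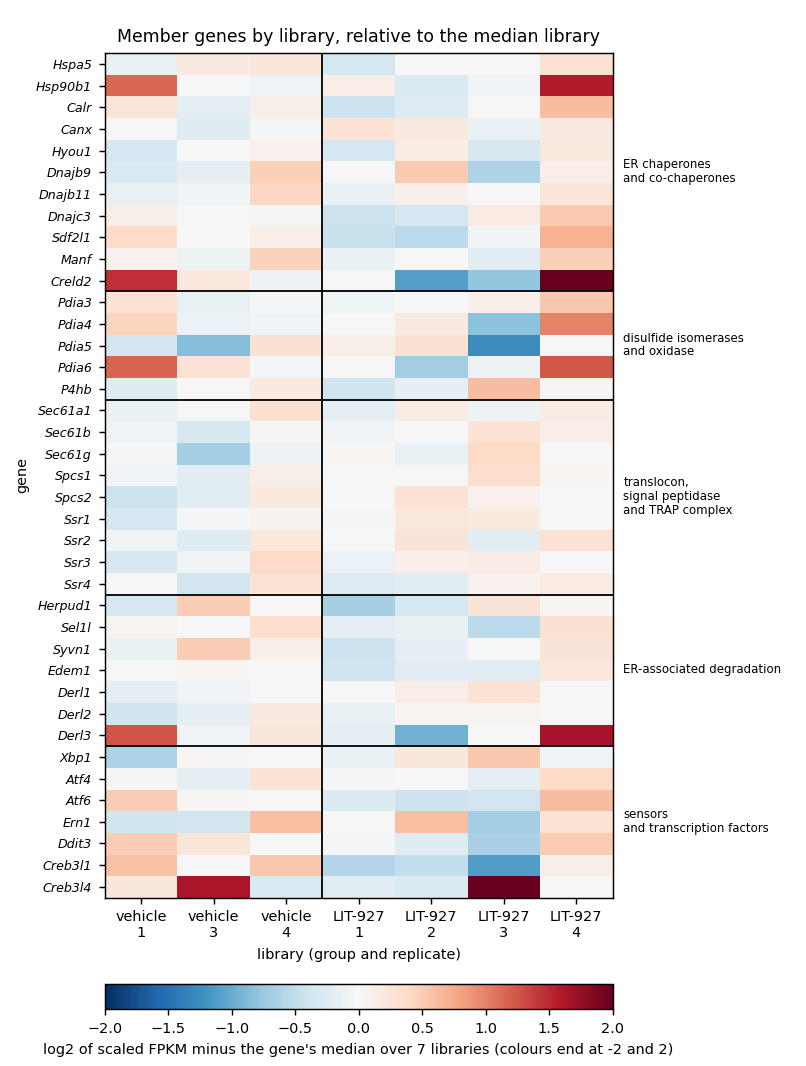
Level of each of the 39 genes (rows, grouped by role) in each library (columns), as log2 of scaled FPKM minus the gene's median over the 7 libraries; red is above and blue below that median, and the colours end at -2 and 2. Hsp90b1, Creld2, Pdia6 and Derl3 are red in vehicle replicate 1 and LIT-927 replicate 4, Creb3l4 is red in replicate 3 of both groups, and the translocon rows are pale.

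Among the disulfide isomerases, the abundant P4hb and the less abundant Pdia6 followed different libraries. P4hb, protein disulfide isomerase itself and the beta subunit of collagen prolyl hydroxylase, was at 554, 544 and 384 FPKM with vehicle and 435, 455, 632 and 591 with LIT-927. Its ratio to Hspa5 was 2.002 in LIT-927 replicate 3 and 1.07 to 1.28 in the other libraries. Pdia6, which also acts on the IRE1 sensor, was at 780, 350 and 172 FPKM and 302, 166, 201 and 725, high in vehicle replicate 1 and LIT-927 replicate 4. Its difference was -0.30 (SE 0.66), and after scaling it spanned 3.83 times, more than all but 11.5% of genes. Exons of Pdia6 overlap Atp6v1c2 on the opposite strand.

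Pdia3, the isomerase that works with calnexin and calreticulin, was at 417, 258 and 173 FPKM with vehicle and 286, 269, 232 and 448 with LIT-927; its exons overlap Catsper2 on the opposite strand. Pdia4 was at 128, 71.9 and 45.5 FPKM and 82.2, 83.1, 33.4 and 167. Pdia5 was the least abundant of this group, at 10.5, 6.24 and 8.55 FPKM and 12.9, 13.1, 3.51 and 12.1. All 3 overlapped between the groups, with differences of 0.17, 0.07 and 0.16. Of the 5 isomerases, 4 had a higher fitted value with LIT-927, as deposited and after scaling.

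The channel, signal peptidase and translocon-associated genes had fitted values that were all on one side, yet none passed the test. Of the 9 genes, 9 were higher with LIT-927 as deposited and 7 after scaling, with a median of 0.20 and 0.14. Over all genes, 55.5% were higher as deposited, and the median was 0.08 over genes with at least 1 FPKM in 3 libraries. Sec61a1, which forms the channel, was the least different at 0.01 (SE 0.26), with 164, 148 and 113 FPKM in the vehicle libraries and 139, 156, 104 and 177 in the LIT-927 libraries. Its sign turned to -0.05 after scaling.

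Sec61g and Sec61b, the small subunits of the channel, were higher in value with LIT-927 but overlapped vehicle. Sec61g was at 156, 78.5 and 72.3 FPKM with vehicle and 137, 109, 126 and 135 with LIT-927, so that vehicle replicate 1 was above all LIT-927 libraries and the other vehicle libraries below them. The means were 102 ± 46.6 (SD, n = 3) and 127 ± 12.97 (SD, n = 4), and the difference was 0.39 (SE 0.30, 95% interval -0.31 to 1.09). Sec61b was at 453, 317 and 247 FPKM and 403, 372, 360 and 460, a difference of 0.27 (SE 0.31).

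Spcs2 and Spcs1 are noncatalytic subunits of the signal peptidase. Spcs2 was at 55.4, 52.9 and 43.4 FPKM with vehicle and 64.4, 70.8, 49.4 and 65.9 with LIT-927. Only LIT-927 replicate 3 fell within the vehicle range, and the difference was 0.30 (SE 0.20, 95% interval -0.17 to 0.77). Spcs1, whose exons overlap Glt8d1 on the opposite strand, was at 145, 107 and 85.1 FPKM and 132, 117, 120 and 138, a difference of 0.20 (SE 0.24). The 4 genes of the translocon-associated protein (TRAP) complex, which helps some proteins start their passage, differed by 0.24 (Ssr1), 0.17 (Ssr2), 0.08 (Ssr3) and 0.03 (Ssr4). After scaling, the 9 genes of import spanned a median of 1.504 times between the highest and the lowest library, beside 1.61 for all genes with at least 1 FPKM in every library and 1.85 for the listed genes that met this floor, 38 of the 39.

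ER-associated degradation (ERAD) was led in level by Herpud1, a scaffold of the degradation complex. Herpud1 was at 157, 233 and 102 FPKM with vehicle and 110, 124, 148 and 183 with LIT-927, with vehicle replicate 3 the highest. Sel1l and Syvn1, the adaptor and the ubiquitin ligase of the central complex, differed by -0.20 (SE 0.32) and -0.17 (SE 0.31). Edem1, which marks misfolded glycoproteins by trimming mannose, differed by -0.11 (SE 0.30). Exons of Syvn1 overlap Mrpl49 on the opposite strand, and those of Derl2 overlap Mis12.

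The derlins, membrane proteins of the exit channel, showed the widest contrast within a family. Derl3 on chromosome 10 (75893413 to 75895941, plus strand) was at 137, 45.0 and 34.0 FPKM with vehicle and 43.4, 22.8, 35.7 and 160 with LIT-927. Vehicle replicate 1 and LIT-927 replicate 4 were again far above the rest, and the span after scaling, 6.13 times, was exceeded by 6.06% of genes. Derl1 was at 47.1, 42.5 and 27.0 FPKM and 46.4, 45.4, 40.5 and 47.4, and after scaling at 36.1, 39.4 and 40.6 with vehicle and 40.8, 44.8, 49.8 and 40.9 with LIT-927. Its groups thus stood apart after scaling by a gap from 40.6 to 40.8, while its difference as deposited was 0.24 (SE 0.23). Derl1 also had the narrowest span of the 38 genes, 1.38 times. Derl2 differed by 0.18 (SE 0.19). Of the 7 degradation genes, 2 had a higher and 5 a lower fitted value with LIT-927, with a median of -0.16.

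**Figure D3:**
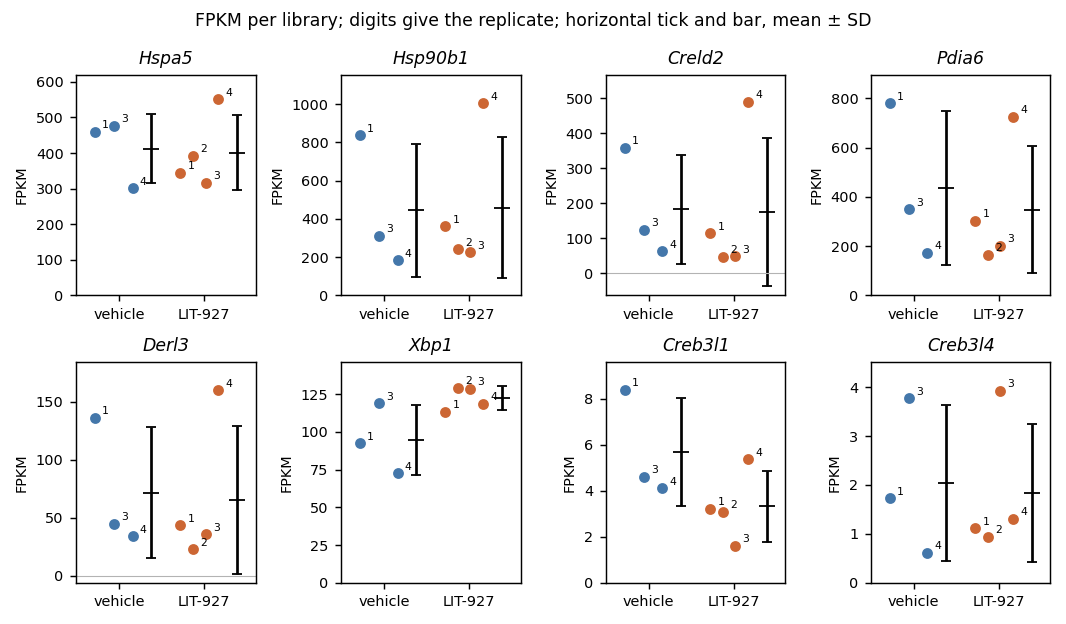
FPKM of 8 genes in each library (vertical axis, FPKM from a base of 0 or below; horizontal axis, group), with digits for the replicate and the mean ± SD beside the points (vehicle n = 3, LIT-927 n = 4). Hsp90b1, Creld2, Pdia6 and Derl3 are high in vehicle replicate 1 and LIT-927 replicate 4, Xbp1 is closely spaced with LIT-927, and the groups overlap in all 8 panels.

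Of the sensors and factors, Xbp1 and Creb3l1 had the smallest p among the 39 genes, and neither passed the test. Xbp1 on chromosome 11 (5520659 to 5525893, plus strand) encodes the transcription factor made active when IRE1 splices its RNA. It was at 92.3, 119 and 72.4 FPKM with vehicle and 113, 129, 129 and 119 with LIT-927. The LIT-927 libraries lay close together, 122 ± 7.72 (SD, n = 4) against 94.5 ± 23.3 (SD, n = 3), and vehicle replicate 3 lay within their range. The difference was 0.40 (SE 0.22, 95% interval -0.13 to 0.92). Gene totals do not separate spliced from unspliced Xbp1, so they say nothing of its activation.

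Creb3l1 on chromosome 2 (91982328 to 92024502, minus strand), a membrane-bound factor cleaved like ATF6 and known for collagen secretion, was at 8.39, 4.604 and 4.10 FPKM with vehicle and 3.22, 3.07, 1.605 and 5.37 with LIT-927. LIT-927 replicate 4 lay above vehicle replicates 3 and 4, and the other 3 LIT-927 libraries lay below all vehicle libraries. The means were 5.70 ± 2.34 (SD, n = 3) and 3.32 ± 1.55 (SD, n = 4), a difference of -0.65 (SE 0.37, 95% interval -1.51 to 0.21). Markers of many cell types also had lower fitted values with LIT-927: 9 of 9 for fibroblasts, 8 of 8 for smooth muscle, 9 of 9 for basal epithelium, 7 of 7 for endothelium, 11 of 11 for plasma and B cells, and 9 of 10 for macrophages and other leukocytes. So did 7 of 8 for urothelium, 10 of 12 for prostate luminal cells and 7 of 10 for seminal vesicle secretion. Those of vas deferens and epididymis went the other way, with 7 of 7 higher. Over all 16019 genes, 7131 were lower. The fibroblast markers, among them the collagens, summed to 91.3 to 500 FPKM with vehicle and 72.0 to 240 with LIT-927, and those of leukocytes to 99.8 to 256 and 33.7 to 99.2, with none at 0 in either list. The part of these cell types in the Creb3l1 values was not tested.

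Ern1, the gene of the IRE1 sensor, was at 22.3, 18.8 and 22.7 FPKM with vehicle and 25.5, 34.6, 11.4 and 31.3 with LIT-927. Atf6, the sensor that is cleaved in the Golgi, was at 26.2, 15.5 and 9.40 FPKM and 13.3, 10.8, 8.81 and 25.1. Atf4, the factor translated when PERK acts, was at 213, 154 and 130 FPKM and 180, 164, 115 and 246. All 3 overlapped between the groups, with differences of 0.16, -0.21 and 0.07. Ddit3, encoding the factor CHOP that is associated with cell death in prolonged stress, was low at 8.53, 5.94 and 3.10 FPKM and 5.15, 4.01, 2.41 and 7.67, a difference of -0.24 (SE 0.41). Control of ATF4 by translation and of ATF6 by cleavage would not appear in these RNA levels.

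Creb3l4, a relative of Creb3l1 known for expression in the prostate, was the least abundant of the genes and had a pattern of its own. It was at 1.73, 3.77 and 0.613 FPKM with vehicle and 1.12, 0.944, 3.93 and 1.31 with LIT-927, from 61 to 360 recovered fragments per library. Vehicle replicate 3 and LIT-927 replicate 3 were the high libraries, and these were also the ones with high uroplakin transcripts. Of the prostate luminal markers, Sbp, Msmb, Spink1, Defb50 and Azgp1 were highest in these libraries too. Others of that list, such as Tgm4 and Pbsn, were highest in vehicle replicate 1 and LIT-927 replicate 4. The urothelium markers were listed for 8 of 8 genes, with sums of 30.9 to 439 FPKM with vehicle and 36.0 to 366 with LIT-927, and Upk3a and Grhl3 were each at 0 in a library. The part of urothelium or of prostate luminal cells in the Creb3l4 values was not tested. Of the 7 sensors and factors, 3 had a higher and 4 a lower fitted value with LIT-927.

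As deposited, most of these genes shared a difference between libraries within the groups, and after scaling fewer did. This was seen after the values were known and is a description only. Vehicle replicate 1 and LIT-927 replicate 4 were the 2 highest libraries for 23 of the 39 genes (59.0%), beside 27.0% of 8905 genes with at least 1 FPKM in every library. After scaling this held for 10 of the 39 (25.6%), beside 7.37%. Those 10 were Hsp90b1, Calr, Sdf2l1, Creld2, Pdia3, Pdia4, Pdia6, Derl3, Atf6 and Ddit3. Summed over the 39 genes, their share of all FPKM was 1.78%, 0.822% and 0.472% with vehicle and 0.954%, 0.845%, 0.571% and 1.78% with LIT-927. With the seminal vesicle genes left out of the total, it was 2.01%, 1.44% and 1.71% and 1.59%, 1.72%, 0.979% and 2.51%. After scaling, the 9 genes with an ERSE in their window spanned from 1.42 times (Canx) to 9.11 times (Creld2). Creld2, Derl3, Pdia6 and Hsp90b1 had the widest spans of the 38 genes with at least 1 FPKM in every library. Canx and Hspa5, at 1.57 times, were below the median of 1.85. Derl1, Sec61a1 and Ssr2, with narrow spans, had no window to search. Whether the element goes with the span was not tested.

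Prostate luminal markers fell into different library patterns, and the genes named from them were picked after their values were seen. Tgm4, a transglutaminase secreted by prostate luminal cells, was at 8361, 2073 and 1127 FPKM with vehicle and 1953, 61.0, 26.0 and 6706 with LIT-927. Pbsn, the androgen-dependent secretory gene probasin, was at 11311, 3096 and 1283 FPKM and 3823, 129, 233 and 8963. Both were highest in the libraries where Creld2, Derl3, Pdia6 and Hsp90b1 were highest. Sbp, Msmb, Spink1, Defb50 and Azgp1, secretory genes of the same list, were instead highest in vehicle replicate 3 and LIT-927 replicate 3; Msmb, for example, was at 1020 and 337 FPKM there and at 2.83 to 6.62 in the other libraries. The whole luminal list, with 12 of 13 genes listed, summed to 10364 to 76929 FPKM with vehicle and 6952 to 167624 with LIT-927, led by Sbp and Spink1 in the libraries with high uroplakin transcripts, and none was at 0.

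**Figure D4:**
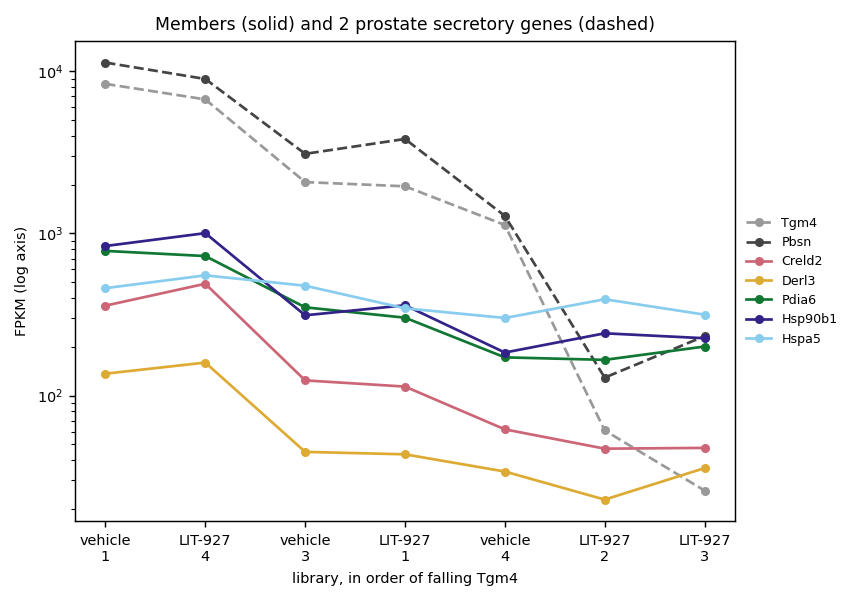
FPKM (vertical axis, log scale) of 5 of the genes (solid lines) and of the prostate secretory genes Tgm4 and Pbsn (dashed lines) in the 7 libraries, ordered along the horizontal axis by falling Tgm4. Creld2, Derl3, Pdia6 and Hsp90b1 are highest in the leftmost pair of libraries, as Tgm4 and Pbsn are, while Hspa5 stays between 301 and 551.

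Smooth muscle transcripts were also highest in the libraries with high Tgm4. The 8 smooth muscle markers summed to 10031, 3799 and 2826 FPKM with vehicle and 4385, 2757, 859 and 5684 with LIT-927, with lower fitted values for 8 of 8 and none at 0. Plasma and B cell markers, 11 of 12 listed, had another order, at 66.0, 28.4 and 7.64 FPKM with vehicle and 13.5, 43.2, 13.2 and 30.8 with LIT-927, with Tnfrsf17 and Ms4a1 among those at 0 in a library. Jchain, a plasma cell gene, was at 36.0, 7.17 and 2.53 FPKM and 4.22, 29.2, 0.0889 and 18.1. Vehicle replicate 1 was highest and LIT-927 replicate 2 next for Jchain. The part of any of these cell types in the levels of the ER genes was not tested.

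The rest of the pathway was read from 7 further lists with 156 listed genes. Of these, 0 passed the adjusted threshold. A higher fitted value with LIT-927 was seen for 113 and a lower one for 43, with a median of 0.08, and after scaling 93 were higher. Over all 16019 genes, 8888 (55.5%) were higher as deposited and 8051 after scaling. The all-gene median was 0.02 as deposited, and 0.08 over the 11151 genes with at least 1 FPKM in 3 libraries. The counts of each list are to be read beside these values. The largest list shift was in N-glycosylation and glycoprotein folding, where 21 of 23 genes were higher, with a median of 0.19 and, after scaling, 0.13. From it Tmem258, a subunit of the oligosaccharyltransferase, was at 118 ± 35.1 (SD, n = 3) and 159 ± 34.7 FPKM (SD, n = 4), and Ganab, the catalytic subunit of glucosidase II, at 41.2 ± 9.45 and 52.5 ± 8.96. Ganab groups overlapped as deposited and did not after scaling, where 4.05% of all genes were higher without overlap. At the other end, Uggt2 and Mogs differed by -0.14 and -0.01.

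Among further translocation factors, 16 of 22 had a higher fitted value as deposited and 14 after scaling. Sec11c, a catalytic subunit of the signal peptidase, was at 104, 103 and 77.1 FPKM with vehicle and 130, 140, 149 and 121 with LIT-927. All 4 LIT-927 libraries lay above all vehicle libraries, by 0.52 (SE 0.21, 95% interval 0.03 to 1.001). It was the only one of the 156 genes with an unadjusted p under 0.05 (limma, adjusted p = 0.998), and after scaling its groups overlapped. Over all genes, 0.718% were higher with an unadjusted p under 0.05, and 1.08% were higher without overlap as deposited. Tram1, a membrane protein beside the channel, differed by 0.37 (SE 0.24), and Tram2, its relative known for collagen synthesis, by -0.26 (SE 0.26). Srp54b differed by -0.65 (SE 0.45), with vehicle replicate 3 at 4.30 and the other libraries at 0.289 to 0.635; it has a near-identical copy, Srp54a, so its value is uncertain.

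Further ERAD genes were higher for 18 of 21 as deposited and 16 after scaling. Edem3, an alpha-mannosidase related to Edem1, was at 30.7, 24.6 and 35.8 FPKM with vehicle and 77.6, 137, 21.9 and 53.2 with LIT-927. Of the LIT-927 libraries, 3 lay above all vehicle libraries and replicate 3 below them, a difference of 0.97 (SE 0.55, 95% interval -0.32 to 2.25). Markers of vas deferens and epididymis, 7 of 10 listed, summed to 9618, 99.4 and 2000 FPKM with vehicle and 20193, 10656, 19.0 and 7391 with LIT-927. Like Edem3, they were lowest in LIT-927 replicate 3 and vehicle replicate 3, but the other libraries came in a different order. Rnase9, Rnase10 and Lcn5 were at 0 in a library, and the part of this tissue in the Edem3 values was not tested. Rnf185, a ubiquitin ligase of the ER membrane, was at 21.2 ± 3.98 (SD, n = 3) and 25.7 ± 0.659 FPKM (SD, n = 4), without overlap as deposited and with overlap after scaling. As deposited, 1.08% of all genes were higher without overlap. Erlin1 and Nploc4, the lower ones by the smallest p, differed by -0.04 and -0.00.

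In the PERK and integrated stress response list 15 of 21 had a higher fitted value as deposited and 13 after scaling. Ppp1r15b and Sesn2, a phosphatase regulator and a stress-induced inhibitor of growth signalling, differed by 0.24 and 0.42. Atf3 and Cebpb, both stress-induced transcription factors, differed by -0.43 (SE 0.26) and -0.38 (SE 0.24). Cebpb did not overlap between the groups after scaling and did as deposited. After scaling, 4.99% of all genes were lower without overlap. Further folding enzymes were higher for 11 of 27 as deposited and 8 after scaling, with Tmx1 and Prdx4 at 0.23 and 0.36 and Clgn and Fkbp14 at -0.12 and -0.39. Further sensors and regulators were higher for 10 of 15 as deposited and 7 after scaling, with a median of 0.04 and -0.01, with Crebrf and Yod1 at 0.32 and 0.13 and Mbtps1 and Creb3 at -0.24 and -0.11. Genes of ER exit and the COPII coat were higher for 22 of 27 as deposited and 15 after scaling, with Bet1 and Sec16b at 0.38 and 0.26 and Sec24d and Sec23a at -0.15 and -0.19.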

How the data were processed

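RNA of mouse prostate was extracted with TRIzol and sequenced, 7 libraries in all. Tools named in the submitters' processing notes are fastp, HISAT2 and HTSeq, with mm10 as the build; not given in the sources used here were versions, roles, annotation and strand setting. As deposited by the authors, values are FPKM, a unit inferred from how the values behave, since the headers read only expression. Whole fragments were recovered within 0.01 fragments for all 16019 genes, and give the depth and a voom alternative.

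The test was limma (version 3.58.1, R 4.3.3) with a trended prior variance, run on log2(FPKM + 1) of every gene in the 7 libraries without covariates or filters, with p-values adjusted over all genes. This scale understates changes of low genes. The code was tested on simulated data. The members and lists were chosen with earlier results of these data known. Named were all members by role, and from each further list the 2 genes with the smallest p among those higher and the 2 among those lower. Genes set beside them as markers, and the members shown in the panels of 8 genes and in the sequence lines, were chosen after values were seen. Results were refitted with 0.1 added in place of 1, with genes of at least 1 FPKM in 3 libraries only, with 2 scalings, with voom, with library weights, with a replicate block and with libraries left out. Gene positions are from GENCODE M21 (GRCm38, the build mm10) and promoter windows from RefSeq (GRCm38.p6); 15 bases are shown on each side of the element, and 5 for Hspa5, whose element lies inside the GENCODE gene record. Protein sequences were not used here. Summaries used pandas 2.3.3 and NumPy 2.4.6 under Python 3.11.15, and plots matplotlib 3.10.9.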

Additional observations from a re-analysis of the deposited data

Results flagged for a closer look

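Within the LIT-927 group, 8 of the 39 genes had 1 library far from the other 3, by a gap that took more of the group's whole range than Dixon's 95% limit for 4 samples allows. Chance gives this for about 1 in 20 groups, and the vehicle group of 3 was too small for it. The values are FPKM as deposited. The share of all genes with such a gap is not given here, so the count is not read as a trait of these genes. As deposited, vehicle replicate 1 and LIT-927 replicate 4 were also the highest libraries for 27.0% of 8905 genes with at least 1 FPKM in every library. LIT-927 replicate 4 was the high library in 6 of the 8: Calr at 873 FPKM against 400 to 421 in the others, Dnajc3 at 118 against 57.3 to 64.8, Sdf2l1 at 180 against 67.8 to 80.3, Creld2 at 489 against 47.1 to 114, Syvn1 at 39.3 against 23.0 to 25.8, and Derl3 at 160 against 22.8 to 43.4. LIT-927 replicate 3 was the low library for Pdia5, at 3.51 FPKM against 12.1 to 13.1, and the high one for Creb3l4, at 3.93 against 0.944 to 1.31.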

How the results depend on the processing

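None of the 39 genes passed the adjusted threshold in limma under any of the 22 alternatives, and differences of the 39 genes turned sign in many of them. The number of genes called over the whole table was 0 in all alternatives but library weights, which gave 466; the cause was not tested. With a pseudocount of 0.1 or a minimum of 1 FPKM in 3 libraries, no sign turned for the 39 genes. The number higher with LIT-927 was 24 as deposited, 19 with median-of-ratios and 14 with upper-quartile scaling, 20 with voom and 24 with library weights. Leaving out 1 library, with or without scaling, it ran from 13 to 34. The median difference, 0.046 as deposited, was -0.015, -0.039, 0.007 and 0.071 in those 4 alternatives, 0.18 without both libraries with high uroplakin transcripts, and -0.13 to 0.25 without 1 library.

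The sign turned with median-of-ratios scaling for Hsp90b1 (-0.018), Dnajb11 (-0.015), Dnajc3 (-0.045), Sec61a1 (-0.05) and Ssr4 (-0.027). With upper-quartile scaling it turned for Hsp90b1 (-0.043), Hyou1 (-0.02), Dnajb9 (-0.011), Dnajb11 (-0.039), Dnajc3 (-0.069), Pdia4 (-0.015), Sec61a1 (-0.075), Ssr3 (-0.0026), Ssr4 (-0.052) and Atf4 (-0.018), and with voom for Dnajb11 (-0.003), Dnajc3 (-0.026), Sec61a1 (-0.046) and Ssr4 (-0.019). Library weights turned Calr (0.033), Hyou1 (-0.037), Dnajc3 (-0.139), Manf (0.131), P4hb (-0.163) and Derl3 (0.011). Without both libraries with high uroplakin transcripts it turned for Hspa5 (0.179), Calr (0.045), Manf (0.092), Herpud1 (0.101), Sel1l (0.033), Syvn1 (0.148), Edem1 (0.097), Ddit3 (0.043) and Creb3l4 (0.015). Fits without 1 library were made as deposited and with median-of-ratios scaling, and every sign was set against the main fit as deposited. Some turns may thus come with the scaling and not with the library left out. Over both kinds of fit, the sign turned at least once for 28 genes, whose differences ran as follows: Hspa5 -0.254 to 0.075, Hsp90b1 -0.446 to 0.642, Calr -0.281 to 0.288, Hyou1 -0.125 to 0.252, Dnajb9 -0.154 to 0.389, Dnajb11 -0.115 to 0.168, Dnajc3 -0.293 to 0.267, Sdf2l1 -0.505 to 0.128, Manf -0.255 to 0.144, Creld2 -1.134 to 0.271, Pdia3 -0.133 to 0.5, Pdia4 -0.287 to 0.475, Pdia5 -0.147 to 0.565, Pdia6 -0.836 to 0.251. For the other 14 they were P4hb -0.17 to 0.189, Sec61a1 -0.141 to 0.157, Ssr3 -0.133 to 0.213, Ssr4 -0.195 to 0.257, Herpud1 -0.459 to 0.133, Sel1l -0.397 to 0.029, Syvn1 -0.462 to 0.067, Edem1 -0.378 to 0.087, Derl3 -0.836 to 0.318, Atf4 -0.108 to 0.264, Atf6 -0.556 to 0.139, Ern1 -0.082 to 0.493, Ddit3 -0.566 to 0.043 and Creb3l4 -0.462 to 0.32. The remaining 11, which kept their sign, were Canx, Sec61b, Sec61g, Spcs1, Spcs2, Ssr1, Ssr2, Derl1, Derl2, Xbp1 and Creb3l1.

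Both groups hold replicates numbered 1, 3 and 4. Same-numbered libraries deviated together for 1 and 3 (correlations 0.57 and 0.70) and not for 4 (-0.24), so the numbers were not taken to pair the samples. With the replicate number as a block, which leaves LIT-927 replicate 2 without a partner, 0 genes were called, 23 of the 39 were higher, and the median was 0.065. In the replicate block fit the sign turned for Calr (0.072), Hyou1 (-0.006), Dnajb9 (-0.089), Sec61a1 (-0.035), Derl3 (0.082), Ern1 (-0.015) and Creb3l4 (0.068). Depth limits only the lowest genes: Creb3l4 rests on 61 to 360 and Creb3l1 on 117 to 642 fragments per library.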

Other observations

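Pdia5 was low in the libraries with high uroplakin transcripts; this was seen after the values were known and is given as values only. It was lowest in LIT-927 replicate 3 at 3.51 FPKM, with vehicle replicate 3 next at 6.24, while the other libraries were at 8.55 to 13.1. As deposited, Ern1 was lowest in these libraries as well, at 11.4 and 18.8 FPKM beside 22.3 to 34.6, but after scaling vehicle replicate 1, at 17.1, was below vehicle replicate 3, at 17.4. Edem3, at 21.9 and 24.6 FPKM beside 30.7 to 137, was also lowest there as deposited, and after scaling vehicle replicate 1 was below LIT-927 replicate 3. For Pdia5, LIT-927 replicate 3 and vehicle replicate 3 were also the lowest libraries after scaling. Creb3l4, at 3.93 and 3.77 FPKM, was highest in the same libraries.

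The row Ero1a was at 7.81, 6.13 and 4.87 FPKM with vehicle and 7.66, 8.22, 3.79 and 8.54 with LIT-927, a difference of 0.12 (SE 0.31), with LIT-927 replicate 3 the lowest library.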
